A study of Mus musculus with 8 samples.

Results

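RNA levels of 7 genes used as markers of cholangiocytes and simple epithelium were followed in the liver of mice given a herbal decoction: Spp1, Krt7, Krt19, Krt8, Krt18, Epcam and Sox9. They were taken by symbol from a deposited table of 24547 genes, and all 7 were found. The treated group consisted of 4 liver libraries from ICR mice, an outbred strain, that received high-dose Psoraleae Fructus (the fruit of Psoralea corylifolia) as a decoction into the stomach for 30 days. The control group consisted of 4 liver libraries from ICR mice labelled as controls, with saline named as the agent given over the same 30 days. No genetic change is named for either group, and the labels give no age, sex, dose in units of mass or batch. Nothing in the labels says that each library came from its own animal, so every p-value speaks of library spread, which may be technical. Library totals ran from 16398729 to 20159132 counts in treated and from 15864399 to 19153845 counts in control libraries.

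Cholangiocytes line the bile ducts and modify bile, and they make up a small share of liver cells. Keratins build intermediate filaments from obligate pairs of a type II and a type I chain. Adult hepatocytes are known for a single simple pair, K8 (Krt8, type II) with K18 (Krt18, type I), while cholangiocytes add K7 (Krt7, type II) and K19 (Krt19, type I). Epcam encodes an epithelial adhesion protein of bile duct and progenitor cells, and Sox9 a transcription factor of the biliary lineage that some periportal hepatocytes also express. Spp1 encodes osteopontin, a secreted matrix glycoprotein made by bile duct cells and also by activated macrophages and other cells. A rise of duct-type keratins, Epcam, Sox9 and Spp1 is the usual picture of a ductular reaction after liver damage.

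In these livers none of the 7 genes passed the test between treated and control libraries: 5 could be fitted with edgeR and 0 were called, beside 9.21% of all genes tested. The tissue held much Krt18 and Krt8 and very little Krt7 and Krt19, in both groups. Per unit length, Krt18 averaged 77.4 ± 10.4 FPKM in treated and 76.5 ± 21.2 FPKM in control libraries, and Krt7 averaged 0.0540 ± 0.0417 FPKM in treated and 0.0316 ± 0.0201 FPKM in control libraries (SD, n = 4 each). FPKM here is the deposited value, a count divided by gene length and by the library total. The keratins that mark ducts were thus at the edge of detection, and most keratin RNA was of the pair that hepatocytes also make. Bulk tissue gives levels per total RNA, so fewer cells of a type and less RNA per cell cannot be told apart.

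The genes lie on 4 chromosomes, with positions on GRCm38 from the GENCODE M21 annotation. Krt18 (ENSMUSG00000023043, chromosome 15, 102028180 to 102032027, plus strand) and Krt8 (ENSMUSG00000049382, chromosome 15, 101996698 to 102004482, minus strand) are divergent neighbours with 23697 bases and 0 annotated genes between them. Krt7 (ENSMUSG00000023039, chromosome 15, 101411043 to 101430313, plus strand) lies on the same chromosome. Krt19 (ENSMUSG00000020911, chromosome 11, 100140810 to 100148665, minus strand) and Sox9 (ENSMUSG00000000567, chromosome 11, 112782224 to 112787760, plus strand) share another. Spp1 (ENSMUSG00000029304) is on chromosome 5, 104435118 to 104441050, and Epcam (ENSMUSG00000045394) on chromosome 17, 87635979 to 87651129, both on the plus strand. All are annotated as protein-coding.

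The start regions of the neighbouring pair at the top of the level order, and of Krt7 at its bottom on the same chromosome, are shown so that the sequences can be set beside the levels. Each is the RefSeq window on GRCm38.p6 from 250 bases before to 50 bases after the RefSeq start. It is read 5′ to 3′ on the strand of the gene. The RefSeq starts of these genes lie inside the GENCODE gene bounds given above, and for Krt7 the whole window does. The windows are chr15:102027966-102028265 (plus) for Krt18, chr15:102004293-102004592 (minus) for Krt8 and chr15:101412153-101412452 (plus) for Krt7. Capitals mark matches, on either strand, to 4 motifs. The element bound by the TATA-binding protein was searched as TATAAA, and the site of Sp1-type factors as GGGCGG. The core site of RBPJ, the Notch effector, was searched as TGGGAA, and the site of TEAD, the partner of YAP, as GGAATG.
Krt18: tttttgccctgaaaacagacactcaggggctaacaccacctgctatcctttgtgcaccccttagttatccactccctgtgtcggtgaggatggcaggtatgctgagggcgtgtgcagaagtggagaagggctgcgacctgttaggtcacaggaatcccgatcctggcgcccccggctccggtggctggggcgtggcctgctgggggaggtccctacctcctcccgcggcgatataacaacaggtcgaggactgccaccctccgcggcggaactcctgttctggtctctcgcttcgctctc
Krt8: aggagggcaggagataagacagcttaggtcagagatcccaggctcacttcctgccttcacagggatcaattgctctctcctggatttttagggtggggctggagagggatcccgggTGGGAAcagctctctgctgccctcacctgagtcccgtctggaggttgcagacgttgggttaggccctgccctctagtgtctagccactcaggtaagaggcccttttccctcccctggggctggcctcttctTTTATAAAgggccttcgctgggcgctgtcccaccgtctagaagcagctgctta
Krt7: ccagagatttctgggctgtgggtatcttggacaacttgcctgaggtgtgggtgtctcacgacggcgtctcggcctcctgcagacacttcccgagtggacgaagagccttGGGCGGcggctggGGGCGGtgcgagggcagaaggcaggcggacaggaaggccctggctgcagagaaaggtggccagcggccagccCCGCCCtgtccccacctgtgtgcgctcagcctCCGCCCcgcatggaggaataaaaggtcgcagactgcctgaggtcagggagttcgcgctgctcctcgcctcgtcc

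The Krt8 window held TATAAA on both strands as overlapping matches, at bases -3 to 2 and -1 to 4, thus on the RefSeq start. It held TGGGAA once. The Krt7 window held GGGCGG at 4 positions, and the Krt18 window held none of the 4 motifs. Of 32544 mouse windows of the same length, 13.6% held TATAAA, 35.9% GGGCGG, 25.4% TGGGAA and 14.6% GGAATG. GC content was 61.3% in the Krt18 window, 58.0% in that of Krt8 and 66.3% in that of Krt7. Such matches describe letters, and a window without one says nothing about the factor. RefSeq windows were matched for 5 of the 7 genes, and Krt19 and Sox9 were without one.

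The order of the levels was the same in both groups: Krt18, Krt8, Spp1, Sox9, Epcam, Krt19 and Krt7, from high to low by mean FPKM. Among 22927 genes with a count, Krt18 ranked 584 in treated and 563 in control libraries, and Krt7 ranked 16042 in treated and 17901 in control libraries. Krt18 exceeded Krt8 in 4 of 4 treated and in 4 of 4 control libraries, by 1.52 times in the treated and 1.87 times in the control means, although the control ranges overlapped. Both stood clear of Spp1, and Spp1 stood clear of Sox9, with no overlap of FPKM between these neighbours in either group. Sox9 and Epcam overlapped in both groups, although Sox9 was the higher in 3 of 4 treated and in 4 of 4 control libraries. Epcam and Krt19 overlapped too, with Epcam the higher in 2 of 4 treated and in 3 of 4 control libraries. By FPKM, Krt19 was above Krt7 in every library, by 4.48 times in treated and 8.70 times in control means. The ranges overlapped in treated libraries. The gene length behind FPKM was 7049 bases for Krt7 and 1855 for Krt19. By summed counts both genes lay closer, with Krt7 at 26 and Krt19 at 31 in treated, and 15 against 35 in control libraries. In treated 4, Krt7 had 5 counts and Krt19 had 4.

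**Figure D1:**
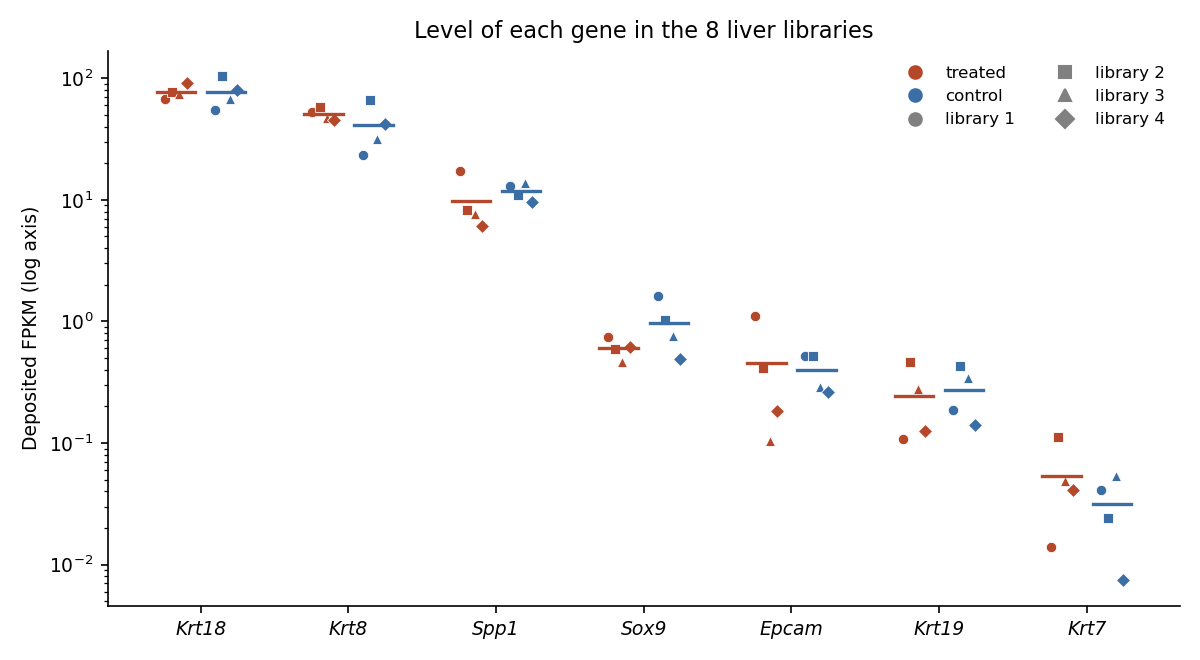
Deposited FPKM (log axis) of the 7 genes in each library, with treated libraries in red left of control libraries in blue. Marker shapes give the library number within a group and bars give the group mean. Krt18 and Krt8 lie above 20 FPKM in all 8 libraries, and Krt7 below 0.2.

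Krt8, the type II chain of the hepatocyte pair, averaged higher after treatment and did not pass the test. It stood at 105, 109, 99.4 and 90.8 CPM in treated libraries 1 to 4, against 47.8, 118, 61.9 and 82.8 CPM in control libraries 1 to 4 (CPM, counts scaled to the library total after TMM adjustment, does not correct for length). All 4 treated values were above the control median of 72.3 CPM, but control 2 was above every treated library. Means were 101 ± 7.95 CPM in treated and 77.5 ± 30.4 CPM in control libraries. The log2 fold change, treated over control, was 0.38 (SE 0.24, 95% interval -0.16 to 0.92, edgeR quasi-likelihood test adjusted over all genes, adjusted p = 0.322). The interval reaches from a 0.895-fold to a 1.90-fold level, and values up to either bound are not excluded by it.

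The Krt8 comparison turned on the control libraries. Without control 1 the log2 fold change was 0.21 (SE 0.20, edgeR adjusted p = 0.524). Without control 2 the log2 fold change was 0.66 (SE 0.18, edgeR adjusted p = 0.0715), and without controls 2 and 4 together it was 0.89 (SE 0.16, edgeR adjusted p = 0.0151). Controls 2 and 4 were the controls highest in Krt8, at 118 and 82.8 CPM. Leaving them out raises the Krt8 fold by construction, so that call is no support for a change of Krt8. In the fit of 6 libraries without controls 2 and 4, 8.07% of all genes were called, and Krt8 was the single one of the 7 genes among them. Control 2 also held the most RNA of Kupffer cell and macrophage markers of any library, with the 13 list genes summing to 1219 CPM there, against 326 to 634 CPM in treated and 503 to 848 CPM in the other control libraries. Vim, the intermediate filament gene of mesenchymal and blood cells, stood at 99.1 CPM in control 2. Control 4 went the other way, with the lowest values among controls, at 503 CPM for the macrophage list and 16.1 CPM for Vim. In control 1, the library lowest in Krt8, the macrophage list summed to 848 CPM. The part of these cells in the Krt8 level was not tested. When fold changes were corrected for gene length and GC content, that of Krt8 was 0.15 (adjusted p = 0.751), less than 0.38 by over 1.5 times.

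Krt18, the partner of Krt8 in the hepatocyte filament, gave nearly equal means. It stood at 97.2, 107, 113 and 135.5 CPM in treated libraries, against 82.1, 135.4, 96.1 and 116 CPM in control libraries. The groups overlapped over most of their range, with control 2 and treated 4 at the top. Means were 113 ± 16.2 CPM in treated and 107 ± 23.3 CPM in control libraries, and the log2 fold change was 0.08 (SE 0.17, 95% interval -0.31 to 0.46, edgeR adjusted p = 0.808). Its sign was not stable: the log2 fold change was -0.21 after the length and GC correction, -0.02 without treated 4 and -0.03 without control 1.

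Because the ratio of both genes within a library does not depend on depth, it was followed separately, as a description with no test. Krt8 over Krt18, by FPKM, was 0.791, 0.750, 0.647 and 0.492 in treated libraries 1 to 4, against 0.427, 0.638, 0.473 and 0.525 in control libraries 1 to 4. Treated libraries 1, 2 and 3 lay above all controls, and treated 4 lay among the controls. The mean ratio was 0.670 ± 0.133 in treated and 0.516 ± 0.0908 in control libraries. Its mean log2 differed by 0.37 between treated and control libraries, and by 0.28 to 0.51 with any single library left out. The 4 simple keratins together were Krt18 by 60.0% and Krt8 by 39.7% of their summed FPKM in treated libraries, against 66.0% and 33.8% in control libraries.

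**Figure D2:**
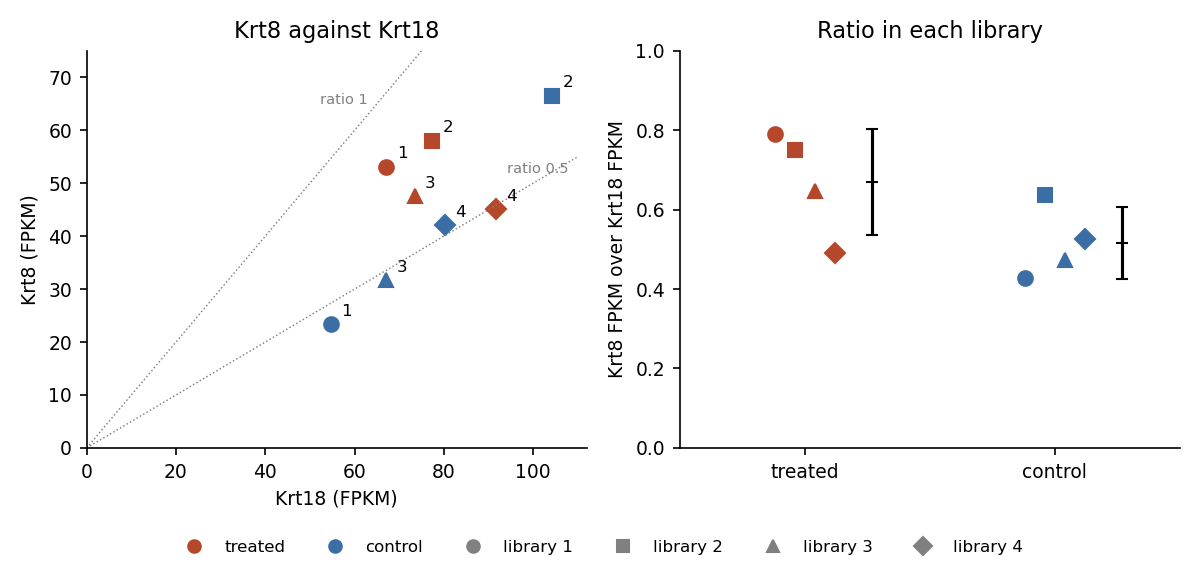
Left, Krt8 against Krt18 FPKM in each library, with numbers giving the library and dotted lines the ratios 0.5 and 1. Right, the ratio of Krt8 to Krt18 FPKM in treated and control libraries, with black bars giving mean ± SD (n = 4). Treated libraries 1, 2 and 3 lie between 0.647 and 0.791, and the controls between 0.427 and 0.638.

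The Krt8 counts could be affected by a near-identical copy. Of the 50-base stretches of its longest transcript, 26.9% also occur in the pseudogene Krt8-ps, which had 0 counts in all libraries, and reads that match both could have been left out or split. For Krt18 this share was 0.72%, and for Krt7, Krt19, Epcam and Sox9 it was 0. For Spp1 it was 9.05%, shared with the overlapping locus Gm42793, and reads that match both could likewise have been left out. An overlapping long non-coding gene on the opposite strand of Krt8, Gm36026, had 3 counts in all libraries together. Since the library kit does not mark strand, reads of Krt7 and of its antisense partner Gm671, which share exon sequence, cannot be told apart.

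Krt7 and Krt19, the keratins that separate cholangiocytes from hepatocytes, were too low for the fit across all genes, since both fell short of its count filter. Krt7 had 2, 13, 6 and 5 counts in treated libraries 1 to 4, against 5, 3, 6 and 1 counts in control libraries 1 to 4. The sums were 26 counts in treated (95% Poisson interval 16.98 to 38.1) and 15 in control libraries (8.39 to 24.7), which overlap. Treated 2 alone gave 13 of the 26 counts. On the log2(CPM + 0.1) scale the group difference was 0.53 (exact two-sided permutation p = 0.457 over 70 assignments, of which the smallest possible p is 0.0286). It was 0.18 without treated 2, 0.21 without control 4 and -0.05 without controls 2 and 4.

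For Krt19, counts were 4, 14, 9 and 4 in treated libraries, against 6, 14, 10 and 5 in control libraries. Their sums were 31 in treated (95% Poisson interval 21.1 to 44.0) and 35 in control libraries (24.4 to 48.7). In each group library 2 was highest and the groups overlapped. The difference of log2(CPM + 0.1) was -0.18 (exact two-sided permutation p = 0.657), and its sign changed in 3 of the 8 comparisons that omitted a library, at 0.06 without treated 1 and at 0.001 or 0.002 without treated 4 or control 2. Poisson intervals cover counting error only. For Krt7 and Krt19 a change of the size that their intervals leave room for was not detectable at this depth.

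Both keratins were highest, among treated libraries, in the library that also held the most RNA of the mesothelial list. Krt7 and Krt19 stood at 0.763 and 0.821 CPM in treated 2, against 0.1 to 0.364 and 0.2 to 0.546 CPM in the other treated libraries. Mesothelial cells cover the liver surface and also express simple keratins. The 7 genes of their list summed to 7.62 CPM in treated 2, against 0.911 to 2.60 CPM in the other treated libraries and 1.16 to 2.70 CPM in control libraries. Upk3b, a mesothelial uroplakin gene, stood at 2.52 CPM and Msln, mesothelin, at 1.23 CPM in treated 2, while Msln had 0.119 CPM or less in each of the other 7 libraries. Lrrn4 was highest in control 3 (1.13 CPM, against 0.411 CPM in treated 2) and Muc16 in treated 1 (0.35 CPM). The other genes of the list were highest in treated 2. Of the 7 list genes, 5 had 0 counts in some library, namely Msln, Upk1b, Wt1, Muc16 and Lrrn4. Their part in the keratin counts was not tested, and the differences without treated 2 are given for both genes, 0.18 for Krt7 above and -0.48 for Krt19.

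Of the 5 fitted members, Epcam had the widest ratio of highest to lowest treated library. It stood at 2.45, 0.880, 0.243 and 0.418 CPM in treated libraries 1 to 4, against 1.20, 1.03, 0.629 and 0.577 CPM in control libraries 1 to 4. Treated 1 was above every control, treated 3 and 4 were below every control, and the highest treated value was 10.1 times the lowest, against 2.08 times among controls. Means were 0.998 ± 1.005 CPM in treated and 0.861 ± 0.306 CPM in control libraries, and the log2 fold change was 0.23 (SE 0.64, 95% interval -1.20 to 1.67, edgeR adjusted p = 0.842). Without treated 1 it was -0.72 (SE 0.54, adjusted p = 0.436). These levels rest on 75 counts in treated and 61 in control libraries. Its biological coefficient of variation was 0.592, higher than for 96.3% of genes tested.

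Spp1, like Epcam, was highest in treated 1. It stood at 28.4, 13.1, 13.4 and 10.3 CPM in treated libraries 1 to 4, against 22.4, 16.2, 22.4 and 15.9 CPM in control libraries 1 to 4. Treated libraries 2, 3 and 4 were below every control and treated 1 was above every control. The means were 16.3 ± 8.19 CPM in treated and 19.2 ± 3.65 CPM in control libraries, with a log2 fold change of -0.23 (SE 0.30, 95% interval -0.92 to 0.45, edgeR adjusted p = 0.647). Without treated 1 the log2 fold change was -0.63 (SE 0.19, edgeR adjusted p = 0.0951), and without treated 4 it was -0.06. Treated 1, where Spp1 and Epcam were highest, held the lowest Krt7 and Krt19 levels among treated libraries, at 0.1 and 0.2 CPM. Gm42793, an unresolved locus that shares exon sequence with Spp1 on the same strand, had 2 counts in all.

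Sox9 was lower on average after treatment, without passing the test. It stood at 3.10, 2.35, 2.06 and 2.63 CPM in treated libraries 1 to 4, against 7.03, 3.83, 3.14 and 2.05 CPM in control libraries 1 to 4. All 4 treated values were below the control median of 3.48 CPM, and control 4 was below every treated library. Means were 2.54 ± 0.442 CPM in treated and 4.01 ± 2.14 CPM in control libraries, and the log2 fold change was -0.66 (SE 0.36, 95% interval -1.46 to 0.15, edgeR adjusted p = 0.256). Without control 1, the highest library, it was -0.24 (SE 0.30, adjusted p = 0.627), and without control 4, the lowest control, -0.87 (SE 0.32, adjusted p = 0.0821). The treated libraries spread little around their mean, with a variance 1.398 times that of counting noise, against 20.1 times in controls.

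**Figure D3:**
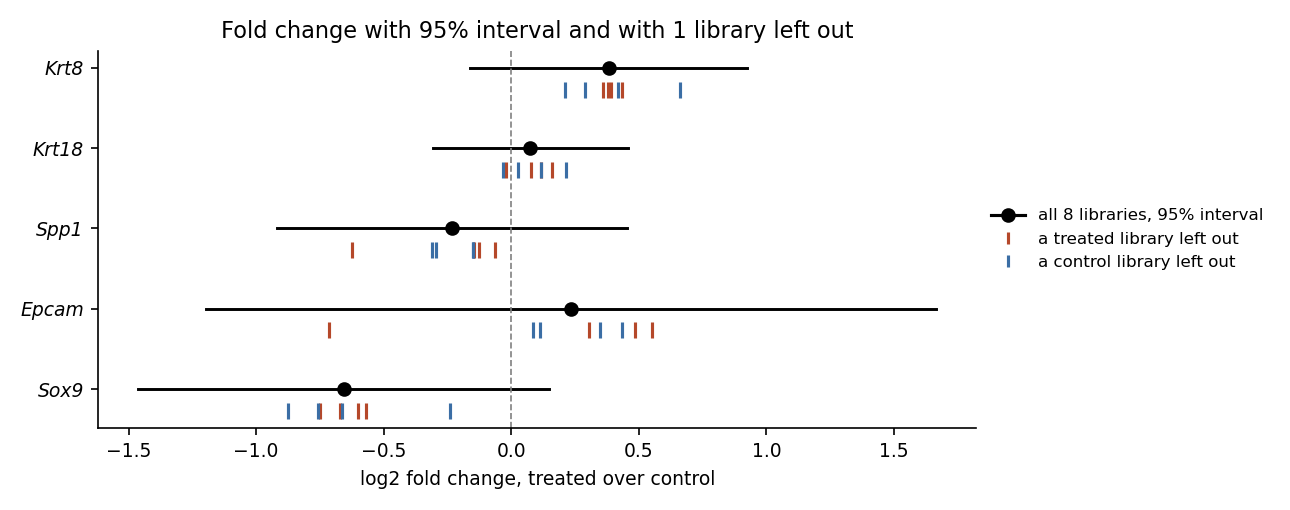
Log2 fold change, treated over control, of the 5 genes that passed the count filter. Points and black lines give the fit with all 8 libraries and its 95% interval, and ticks below give the fit with a treated (red) or control (blue) library left out. All 5 intervals include 0, from Krt8 at 0.38 to Sox9 at -0.66.

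Over the whole table, edgeR called 9.21% of genes (1184 of 12861) at an adjusted p under 0.05, of which those higher after treatment were 5.46% of genes and those lower 3.75%, and 0 of the 5 members that passed the filter were among them. edgeR also gave 0 of the 5 an unadjusted p under 0.05, which 29.4% of all genes had. DESeq2 called 0 of the 7 beside 15.4% of all genes, limma on log2(FPKM + 1) 0 of 4 beside 7.49%, and the length and GC correction 0 of 5 beside 4.51%. Limma-voom with quality weights called 0 of 5 beside 16.5% of all genes, with Krt8 at an unadjusted p under 0.05. No member had groups that did not overlap, which 18.9% of tested genes had. Of the 5 log2 fold changes, 3 were above 0 and 2 below, with the median of all genes tested at -0.04.

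Profiles over the 8 libraries were then set side by side, as a description. For each tested member the 2 closest genes were sought by the root mean square difference of centred log2 CPM over the 8 libraries, among 11939 genes. Smyd5 (0.0457) and Piga (0.0833) were closest to Krt18, Pdcl3 (0.112) and Ccdc157 (0.154) to Krt8, and Jade2 (0.0944) and Fgfr1 (0.108) to Sox9. Pde3a (0.183) and Micu3 (0.196) were closest to Spp1, and Matn2 (0.353) and Mmp17 (0.388) to Epcam. Between members, Krt8 and Krt18 differed by 0.304, and Krt18 was the gene ranked 187 by closeness to Krt8, while Krt8 ranked 3092 by closeness to Krt18. Spp1 and Epcam differed by 0.568, with Spp1 ranked 71 for Epcam and Epcam ranked 6289 for Spp1. Krt8 and Sox9 differed by 0.854. A flat profile would differ by 0.233 from Krt18, 0.418 from Krt8, 0.452 from Spp1, 0.530 from Sox9 and 0.815 from Epcam. Krt8 was thus farther from Krt18 than a flat profile, and Epcam farther from Spp1. Samples that share a group or depth can look alike by this measure.

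Of the further cholangiocyte markers, edgeR called Slc10a2 lower. The list had 26 symbols, of which 25 were matched and 16 tested, with 0 called higher and 1 lower, a share of 6.25% near the 9.21% of all genes. DESeq2 called 1 of 24 (15.4% of all genes) and limma-voom 1 of 16 (16.5% of all genes). The median log2 fold change of the list was -0.29, beside -0.04 over all genes. Slc10a2, the sodium-dependent carrier that takes up bile acids in ileum and cholangiocytes, stood at 3.8, 3.402, 2.91 and 6.09 CPM in treated libraries, against 7.51, 13.9, 24.96 and 19.1 CPM in control libraries. The groups did not overlap, and the log2 fold change was -2.01 (SE 0.37, edgeR adjusted p = 0.0164). The call was lost without treated 1, treated 2 or treated 3 and without controls 2 and 4 (adjusted p up to 0.0662 and 0.0513). Aqp1, the water channel of ducts and vessels, gave a log2 fold change of -0.29 (SE 0.16) and was not called. Of the 25 matched genes, 6 had 0 counts in some library, among them Cftr, the chloride channel of ducts, and Cldn4, a tight junction gene.

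**Figure D4:**
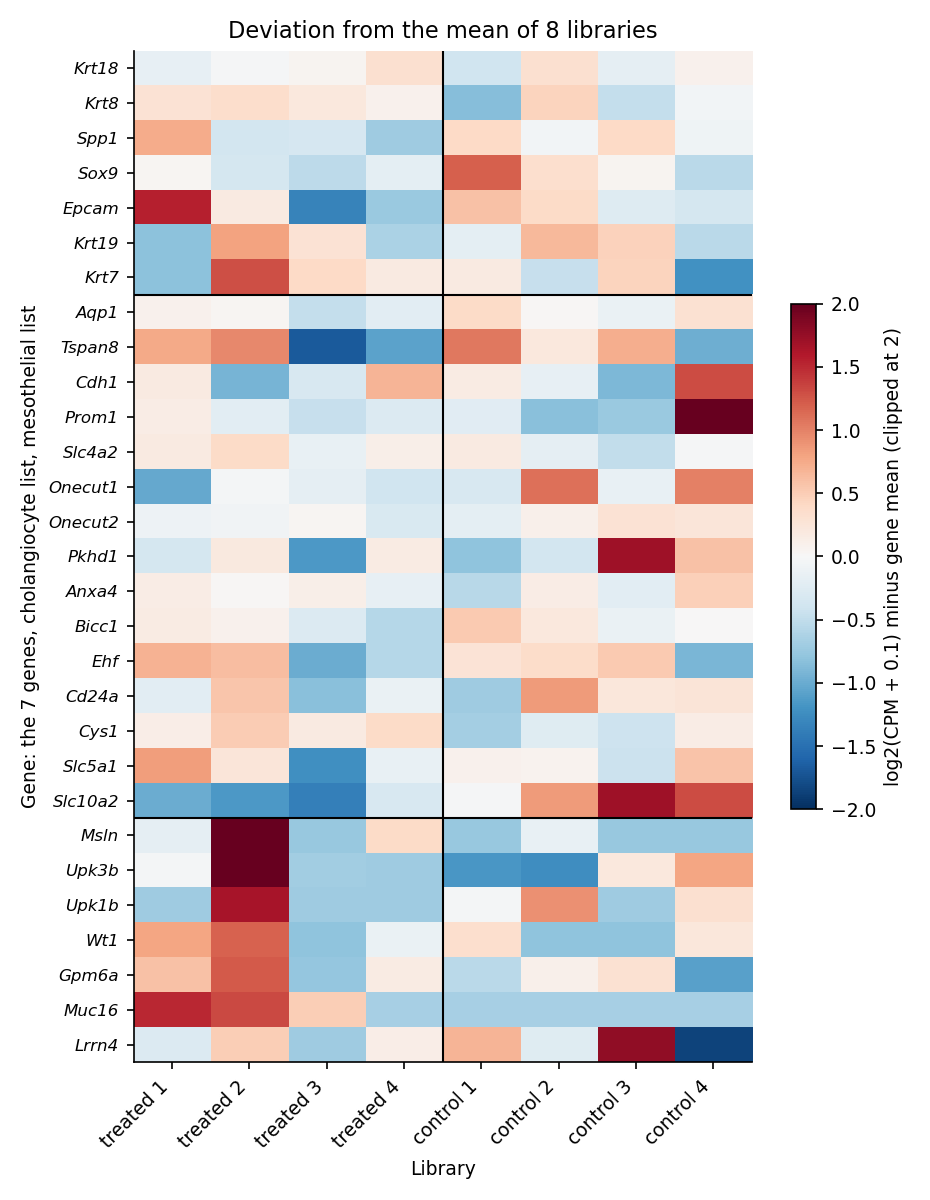
Log2(CPM + 0.1) of each gene minus its mean over the 8 libraries, with treated libraries left of control libraries. From top to bottom are the 7 genes, 15 of the 16 tested genes of the cholangiocyte list and the 7 genes of the mesothelial list. Slc10a2 is lower in the 4 treated libraries, and the mesothelial genes Msln and Upk3b stand out in treated 2.

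Of 13 tested genes of keratin partners, plakins and desmosomes, edgeR called 1 higher and 0 lower, a share of 7.69% near the 9.21% of all genes. It was Pkp4, an armadillo protein of cell junctions, at 135, 144, 131 and 110 CPM in treated libraries, against 98.9, 77.3, 91.6 and 93.5 CPM in control libraries (log2 0.53, SE 0.13, edgeR adjusted p = 0.0338). The groups did not overlap, yet the call was lost in 5 of 8 when single libraries were omitted (treated 1, 2 or 3, control 2 or 3) and after the length and GC correction, with the fold little changed (log2 0.54, adjusted p = 0.0514). The desmosomal genes Dsp and Jup gave log2 fold changes of 0.01 (SE 0.14) and -0.01 (SE 0.12). Of 9 genes tied to keratin inclusions (Mallory-Denk bodies), edgeR called 0 (9.21% of all genes), with 3 at an unadjusted p under 0.05 (29.4% of all genes), while DESeq2 called 0 (15.4% of all genes) and limma-voom 1 (16.5% of all genes). Sqstm1, the p62 adaptor of such inclusions, stood at 416 ± 54.3 CPM in treated and 409 ± 81.3 CPM in control libraries. Ubb, a ubiquitin gene, stood at 482 ± 58.3 CPM in treated and 313 ± 109 CPM in control libraries (log2 0.62, SE 0.23, edgeR adjusted p = 0.115).

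Among 23 tested Notch, TGF-beta and YAP genes of biliary fate, edgeR called 1 higher and 0 lower, 4.35% beside 9.21% of all genes. DESeq2 called 3 of 28 higher and limma-voom 1 of 23 higher, both with 0 lower, beside 15.4% and 16.5% of all genes in either direction. Amotl2, a YAP target that restrains YAP, stood at 40.1, 58.3, 47.7 and 37.4 CPM in treated libraries, against 36.8, 28.7, 28.7 and 26.5 CPM in control libraries (log2 0.60, SE 0.16, edgeR adjusted p = 0.0478). When single libraries were omitted, this call was kept in 1 of 8 fits, that without control 1. Jag1, a Notch ligand, gave -0.40 (SE 0.27) and Hes1, a Notch target, -0.33 (SE 0.20), and Yap1 gave 0.12 (SE 0.14), all uncalled. Notch1 and Notch2 went the other way, at 0.30 (SE 0.19) and 0.26 (SE 0.14), uncalled. Also uncalled were Smad3 at 0.50 (SE 0.16) and Cyr61, the largest fold of the list, at 1.53 (SE 0.58). The median log2 fold change of this list was -0.14, beside -0.04 over all genes. Of 12 tested genes of osteopontin receptors and processing, edgeR called 0 higher and 1 lower, 8.33% beside 9.21% of all genes. DESeq2 called 2 higher and 2 lower of 13, beside 15.4% of all genes. Limma-voom called 2 higher and 2 lower of 12, beside 16.5% of all genes. Itga9, an integrin chain that binds osteopontin, stood at 27.1, 26.98, 19.4 and 23.4 CPM in treated libraries, against 36.4, 39.1, 36.1 and 35.0 CPM in control libraries (log2 -0.60, SE 0.13, edgeR adjusted p = 0.0228). The groups of Itga9 did not overlap, and the call was lost without treated 3, treated 4, control 2 or control 3 and without controls 2 and 4 (adjusted p up to 0.0662 and 0.0517). Cd44, another osteopontin receptor, gave -1.48 (SE 0.49, edgeR adjusted p = 0.0942), with 51.97 CPM in control 2. Other genes of this list were higher on average and also uncalled. Itgb5 gave 0.41 (SE 0.12, edgeR adjusted p = 0.0577) and Fam20c 0.41 (SE 0.12, edgeR adjusted p = 0.0545). The median log2 fold change of the list was -0.07, beside -0.04 over all genes.

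Markers of other cells gave these values beside the members. The tissue label held, with Alb, serum albumin, at 117620 ± 8534 CPM in treated and 116450 ± 21782 CPM in control libraries. Apoa2, an apolipoprotein gene of hepatocytes, stood at 8894 ± 1500 CPM in treated and 6209 ± 1351 CPM in control libraries (log2 0.52, SE 0.22, edgeR adjusted p = 0.145). The counts of calls below stand beside 9.21% of all genes for edgeR, 29.4% at its unadjusted p under 0.05, 15.4% for DESeq2 and 16.5% for limma-voom. Of 12 hepatocyte markers edgeR called 0, with 3 at an unadjusted p under 0.05, and DESeq2 and limma-voom each called 2. Of 11 tested Kupffer cell and macrophage markers, sources of Spp1 as well, edgeR called 3 lower, Timd4, Adgre1 and Ccr2, and 0 higher, a share of 27.3%. The median log2 fold change of these markers was -1.06, beside -0.04 over all genes. DESeq2 and limma-voom each called 6 lower. Without control 4 edgeR called 8, in a fit that called 2330 genes over all against 1184 with all libraries. Without controls 2 and 4 it called 3 (8.07% of all genes), and Ccr2 was not among them (adjusted p = 0.085). After the length and GC correction it called 0 (4.51% of all genes). The calls of Timd4, Adgre1 and Ccr2 were each lost when any 1 treated library or control 2 was omitted. Those of Timd4 and Adgre1 were also lost without control 1 or control 3 (adjusted p up to 0.119, 0.117 and 0.0884 for Timd4, Adgre1 and Ccr2). Of 10 stellate cell markers edgeR called 1 lower, DESeq2 2 and limma-voom 3. The gene called by edgeR was Pdgfra, a growth factor receptor, at 7.04 ± 0.712 CPM in treated and 15.6 ± 2.59 CPM in control libraries (edgeR adjusted p = 0.00666, kept in 8 of 8 when single libraries were omitted). Of the gut, gallbladder and pancreatic markers 7 of 10 symbols were matched and edgeR called 0 of 2 tested, with 0 at an unadjusted p under 0.05 and 0 called by DESeq2. Fabp2, a fatty acid binding protein of gut epithelium, stood at 63.6 ± 30.1 CPM in treated and 75.8 ± 36.2 CPM in control libraries, and Cela1, an elastase gene, at 15.2 ± 3.94 CPM in treated and 21.3 ± 24.4 CPM in control libraries. Cpa1, Pnlip, Gkn3, Vil1 and Cdx2 had 0 counts in some library. The mesothelial list had 1 tested gene, Gpm6a, at 1.42 ± 0.806 CPM in treated and 0.856 ± 0.384 CPM in control libraries, with 0 called by edgeR, 0 at an unadjusted p under 0.05 and 0 called by DESeq2. The part of these cells in the levels of the 7 genes was not tested.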

How the data were processed

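RNA-seq of poly-A RNA in 8 mouse liver libraries was used. The authors deposited raw read counts per gene and FPKM values for each library, 1 column per library. The tools named are DESeq2 1.32.0, HTSeq 0.13.5 and HISAT2, with GRCm38 as build, per the submitters' processing notes, which state no roles. Annotation release and strand setting: not given in the sources used here. The deposited FPKM gave back 1 gene length per gene, within 1% in 100.0% of values. Counts were fitted in R 4.3.3 with edgeR 4.0.16 (filterByExpr with minimum count 10 and minimum total 15, TMM, quasi-likelihood F test with robust dispersion, group as the only term), and p-values were adjusted by Benjamini-Hochberg over 12861 genes. Intervals of fold changes use the degrees of freedom of that fit.

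The 7 genes and the 10 lists were chosen with earlier results of these data known. No list received a set test or a p of its own. The text names the 7 genes, up to 4 called members of each list (or the 2 most abundant) and the 2 closest genes by profile, and other list members only to describe a list, chosen after their values were seen. The values of 1 listed gene are not reported here. Krt7 and Krt19 were compared by an exact permutation test on log2(CPM + 0.1). Sequences come from RefSeq windows on GRCm38.p6. The 50-base matches were searched in GENCODE M21 transcripts, and 24540 identifiers matched that annotation.

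The fit was tested on simulated data. No libraries were near-identical (chi-square per degree of freedom of at least 29.7 over 28 pairs). Alternatives were DESeq2 1.42.0, limma 3.58.1 on log2(FPKM + 1) and log2(FPKM + 0.1), limma-voom, other scalings and filters, a replicate block, a length and GC offset (splines with 5 degrees of freedom per library) and leaving out libraries. A pseudocount of 1 CPM for Krt7 and Krt19 was added after the data were seen.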

Additional observations from a re-analysis of the deposited data

Results flagged for a closer look

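Within each group of 4 libraries, a value was marked when its gap to the nearest library took up a larger share of the range of the group than Dixon's 95% critical value. Of 54 groups of 4 values checked, 3 were marked, and chance marks about 1 in 20. Upk3b, a mesothelial marker, was marked at 2.52 CPM in treated 2, against 0.119 to 0.250 CPM in the other treated libraries. Pdgfra, a stellate cell marker, was marked at 8.10 CPM in treated 1, against 6.57 to 6.75 CPM in the other treated libraries. Cela1, of the pancreatic list, was marked at 9.30 CPM in treated 1, against 16.5 to 17.7 CPM in the other treated libraries. None of the 7 genes was marked in either group.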

How the results depend on the processing

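Of the 7 genes 0 were called in every alternative run but the one without controls 2 and 4, where 1 was called (Krt8, log2 0.89). That run leaves out the controls highest in Krt8. With 1 library left out, log2 fold changes ran over 0.21 to 0.66 for Krt8, -0.032 to 0.22 for Krt18, -0.63 to -0.06 for Spp1, -0.72 to 0.55 for Epcam and -0.87 to -0.24 for Sox9, and the differences of log2(CPM + 0.1) over 0.18 to 0.89 for Krt7 and -0.48 to 0.06 for Krt19. The sign also changed for Krt18 with the length and GC offset (-0.21), for Epcam with limma-voom (-0.31) and with the replicate block (-0.11), and for Krt7 without controls 2 and 4 (-0.049). The cause was not tested.

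Over all genes 1184 were called, 2153 with DESeq2, 2126 with limma-voom, 580 with the length and GC offset, 480 with limma on log2(FPKM + 1) without a filter and 145 at an adjusted p under 0.01. Without single libraries the count ran from 183 (treated 3) to 2330 (control 4). Of the listed genes 8 were called, 19 with DESeq2 or limma-voom, 5 with limma on log2(FPKM + 1) or log2(FPKM + 0.1), 1 without its filter, 3 with the offset, 1 at an adjusted p under 0.01 and from 1 to 20 with a library left out. Epcam gave no value under the stricter count or FPKM filter. The offset was not run together with the block. Krt7, Krt19 and Epcam rest on few counts. Epcam also spread beyond counting noise, with a variance 17.8 times that of such noise in treated and 1.90 times in control libraries.

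Whether same-numbered libraries pair was not settled. The correlations of their deviations from the group means ran from -0.0124 to 0.177, and 3 of 8 libraries correlated best with their own number. With the replicate block 944 genes were called. The block lowered the SE of every fitted member, for Spp1 from 0.304 to 0.195 and for Epcam from 0.643 to 0.472.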
